A study of Mus musculus with 12 samples.

Results

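The axon guidance families are 65 protein-coding genes, of 21811 protein-coding genes in the count files, chosen by their symbols. They are 20 semaphorins (Sema3a to Sema7a) and 9 plexins, 9 EphA and 5 EphB receptors, 5 ephrin-A and 3 ephrin-B ligands, 3 Slit ligands and 4 Robo receptors, and 3 netrins (Ntn1, Ntn4 and Ntn5) with 4 Unc5 receptors; Ntn3 was not analysed here. Their RNA was measured in 12 libraries of CD31+ endothelial cells, each from the forebrain of 1 mouse embryo at E15.5: 4 wild-type (WT) embryos, 4 Gpr124ΔC/ΔC embryos and 4 Gpr124-/- embryos. In the Gpr124ΔC allele a V5 tag and a stop codon remove the cytoplasmic tail of GPR124, an adhesion receptor that acts in WNT7 signalling; the allele was made by CRISPR in C57Bl/6 zygotes and the founders were mated to B6DF1 mice. The Gpr124-/- embryos came from parents with 1 lacZ-replaced allele. Neither allele is limited to endothelium, so the whole embryo carries it. The ΔC allele also lowers the amount of GPR124 protein, so absence of the tail and less receptor cannot be told apart in Gpr124ΔC/ΔC embryos. Sorted cells were CD31+ and negative for CD45, CD140b and the dead-cell dye 7AAD. Nothing in the labels names further treatments.

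The first letter of the embryo names is J, K, L or M, and its meaning is not given. Letter J marks 2 WT and 2 Gpr124ΔC/ΔC embryos, L marks 1 WT and 2 Gpr124ΔC/ΔC embryos, K marks 1 WT and 1 Gpr124-/- embryo, and M marks 3 Gpr124-/- embryos and no other genotype. For the 3 M embryos, letter and genotype cannot be told apart. Reads on genes numbered 13877572 to 22551163 per library. Adgra2, which encodes GPR124, was at 28.3 to 51.1 TPM (a transcript level scaled for gene length and library size) in WT, 34.1 to 63.4 in Gpr124ΔC/ΔC and 4.03 to 6.29 in Gpr124-/- embryos. The summed level of 12 endothelial markers was 13700 to 17500 TPM in WT, 8910 to 14300 in Gpr124ΔC/ΔC and 8310 to 9960 in Gpr124-/- libraries, and none of the 12 was at 0 in all libraries. Cldn5 alone had means of 9180, 4990 and 2170 TPM in WT, Gpr124ΔC/ΔC and Gpr124-/- libraries; without it the other 11 summed to 6100 to 7350, 5380 to 7830 and 6430 to 7770 TPM. The sum of 12 pericyte and mural markers was 40.5 to 91.1 TPM in WT, 22.5 to 50.1 in Gpr124ΔC/ΔC and 42.2 to 56.9 in Gpr124-/- libraries. Against WT, Abcc9 was called higher (log2 fold change 2.66) and Rgs5 lower (-1.47) in Gpr124-/-, and Higd1b lower (-1.54) in Gpr124ΔC/ΔC. Summed neuron markers were at 75.5 to 173 TPM in WT, 107 to 185 in Gpr124ΔC/ΔC and 162 to 223 in Gpr124-/- embryos; macrophage markers at 55.2 to 94.5, 52.1 to 129 and 114 to 177; erythroid markers at 7050 to 11800, 5480 to 9920 and 17900 to 54300; and platelet markers at 278 to 559, 390 to 531 and 569 to 1810. Neural progenitor markers summed to 599 to 653 TPM in WT, 739 to 863 in Gpr124ΔC/ΔC and 916 to 1090 in Gpr124-/- embryos, most of it Vim, which endothelial cells also express (487 TPM in WT and 813 in Gpr124-/-, as means). The defining progenitor genes Sox2, Pax6 and Hes5 had means of 1.85, 0.470 and 3.54 TPM in WT and 2.01, 0.779 and 4.08 in Gpr124-/- embryos. Of the 11 tested genes of this list, Hopx and Slc1a3 were called, both lower in both mutants than in WT. Their means were 11.2, 3.09 and 1.07 TPM for Hopx and 9.16, 2.50 and 2.12 TPM for Slc1a3 in WT, Gpr124ΔC/ΔC and Gpr124-/- embryos. Fibroblast markers summed to 28.5 to 89.3 TPM in WT, 30.4 to 56.4 in Gpr124ΔC/ΔC and 32.0 to 34.1 in Gpr124-/- embryos, and oligodendrocyte precursor markers to at most 1.97 TPM in any library. In Gpr124-/- against WT, 2 of 17 tested neuron markers (Stmn2 and Gap43) were called higher, as were 5 of 9 erythroid and 7 of 8 platelet markers. Of the 12 macrophage markers, 8 had a WT mean under 1 TPM, and of the 4 tested 1 was called higher. The part of these marker levels in the results below was not tested. In such bulk samples, fewer cells of a type and less RNA per cell cannot be told apart.

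These families were named for steering growing axons, and vessels use the same systems. Semaphorins signal through plexins, with neuropilins as co-receptors for most of the secreted class 3; Eph receptor tyrosine kinases meet membrane-bound ephrins on neighbouring cells, and both sides can signal; Slits bind Robo receptors; and netrins act through receptors that include the Unc5 group. In endothelium, ephrin-B2 and EphB4 are known for marking arteries and veins, Sema3E and plexin-D1 for repulsion of sprouts, Robo4 for being largely restricted to endothelial cells, and Unc5b for its place in arteries and tip cells.

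For 4 members that are described at length below, the 250 bases before the gene's start are shown, because they differ in the genotype comparisons or hold the motif searched. The sequences come from the RefSeq promoter table on GRCm38.p6, 5′ to 3′ on the gene's strand, in lower case. Capitals mark a match to the TCF/LEF motif CTTTGAT or CTTTGAA, the site of the transcription factors of canonical WNT signalling, searched on both strands. The regions are chr16:72662899-72663148 (+) for Robo1, chr4:28812881-28813130 (+) for Epha7, chr5:14025026-14025275 (+) for Sema3e and chr6:115995006-115995255 (-) for Plxnd1.
Robo1: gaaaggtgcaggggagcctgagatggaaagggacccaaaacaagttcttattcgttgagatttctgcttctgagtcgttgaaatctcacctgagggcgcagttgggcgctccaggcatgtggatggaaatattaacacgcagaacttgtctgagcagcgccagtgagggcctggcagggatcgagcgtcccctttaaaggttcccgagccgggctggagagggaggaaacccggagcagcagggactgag
Epha7: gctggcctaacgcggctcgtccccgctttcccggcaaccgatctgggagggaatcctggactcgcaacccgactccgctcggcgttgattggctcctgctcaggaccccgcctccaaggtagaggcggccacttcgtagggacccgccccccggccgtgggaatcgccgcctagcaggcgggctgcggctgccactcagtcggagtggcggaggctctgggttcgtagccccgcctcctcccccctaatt
Sema3e: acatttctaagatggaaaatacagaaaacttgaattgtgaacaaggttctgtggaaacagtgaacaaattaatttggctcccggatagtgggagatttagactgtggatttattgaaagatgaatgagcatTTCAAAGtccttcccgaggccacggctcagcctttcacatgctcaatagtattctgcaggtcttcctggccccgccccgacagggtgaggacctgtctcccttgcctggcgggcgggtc
Plxnd1: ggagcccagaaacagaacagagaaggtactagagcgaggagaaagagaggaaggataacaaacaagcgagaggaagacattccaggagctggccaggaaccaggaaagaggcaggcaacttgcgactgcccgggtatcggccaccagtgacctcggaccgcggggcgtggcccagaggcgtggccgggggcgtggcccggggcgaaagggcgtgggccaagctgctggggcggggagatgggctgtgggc
Of the 4 regions, that of Sema3e holds the motif, starting 119 bases before the gene's start. Promoters of 56 of the 65 members were matched in the table. The motif was in 2 of the 56 (Epha2 and Sema3e), or 3.57%, and in 2333 of the 27025 genes of the table, or 8.63%. A match is only a run of letters, and a window without one says nothing about the factor.

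In WT embryos, the member with the highest level in each family was Efna1 (ephrin-A), Robo4, Sema6a, Ephb4, Plxnd1, Unc5b, Epha2, Efnb2, Slit2 and Ntn4. Efna1, an ephrin-A whose main known endothelial receptor is EphA2, stood at 687 TPM ± 88.4 (SD, n = 4), rank 177 among the protein-coding genes, and made up 96.5% to 97.7% of all ephrin-A RNA. Robo4 (217 TPM ± 21.1), Sema6a (170 ± 11.1), Ephb4 (133 ± 16.7) and Plxnd1 (122 ± 33.7) followed, and 5 of the 65 members had a mean of at least 100 TPM. The TPM ranges of Ephb4 and Plxnd1 overlapped over the 4 WT embryos, while each of Efna1, Robo4 and Sema6a lay apart from the next in order. Of the rest, 15 were between 10 and 100 TPM and 22 between 1 and 10, and 23 had a mean under 1 TPM. In these sorted cells, receptor RNA outweighed ligand RNA in the Slit and netrin systems. The 4 Robo genes summed to 227 TPM ± 22.7 against 3.38 ± 0.975 for the 3 Slits. The 4 Unc5 genes summed to 86.1 ± 19.2 against 1.59 ± 0.430 for the 3 netrins. Robo4 alone made up 95.1% to 96.1% of the Robo sum, and Unc5b 96.4% to 98.0% of the Unc5 sum. Robo1, Robo2 and Robo3 had means of 8.56, 1.05 and 0.573 TPM. Ligand RNA of other cells was not measured.

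**Figure D1:**
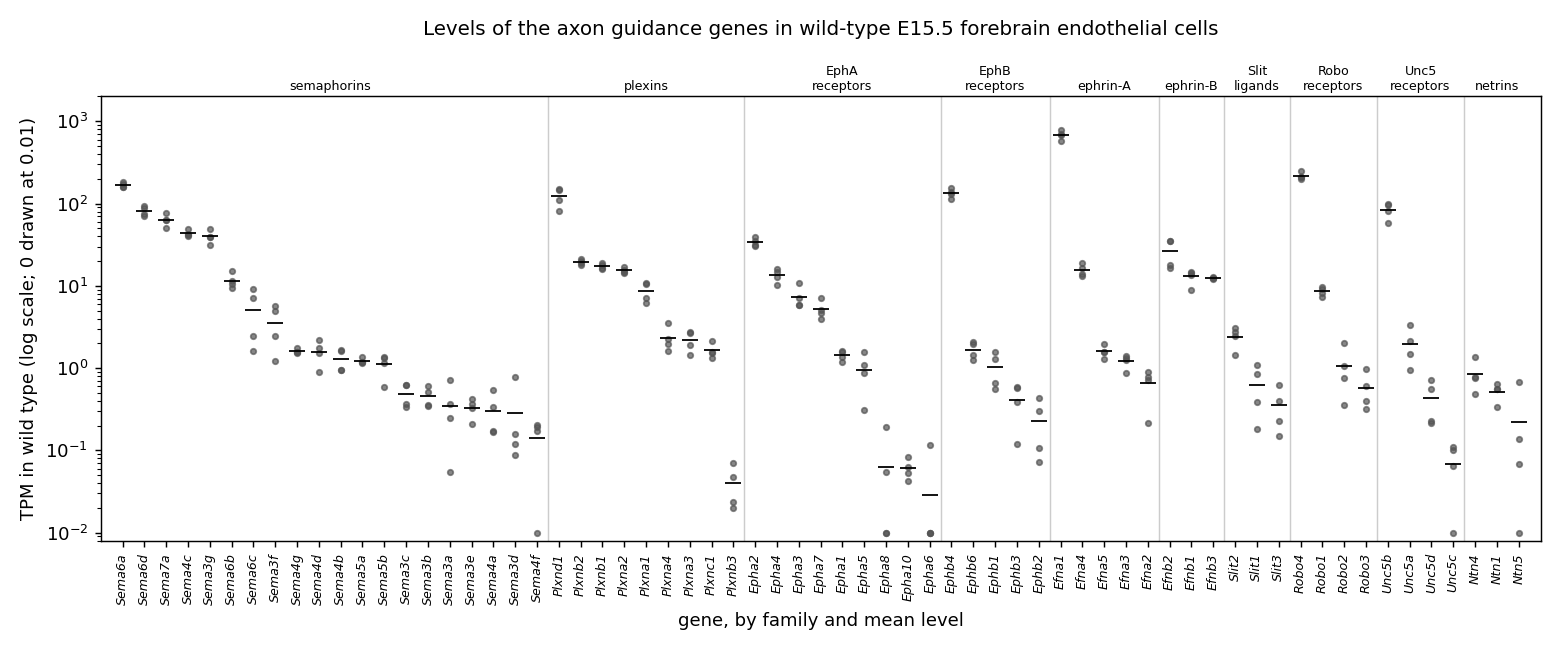
TPM of the 65 members in the 4 WT libraries, on a log axis, grouped by family and ordered by mean; each point is an embryo, each dash a mean, and values of 0 are drawn at 0.01. A single gene leads most families, with Efna1 at 687 TPM above all others.

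The genotypes were compared to see how these families differ in embryos with the ΔC allele or without the receptor. A gene is called when edgeR's quasi-likelihood test gives a Benjamini-Hochberg adjusted p under 0.05 over all 16637 genes tested and the log2 fold change is beyond 1 in either direction. Of the 65 members, 59 passed the filter on low counts and were tested; Sema4f, Plxnb3, Epha6, Epha8, Epha10 and Ntn5 did not, and their highest group mean was 0.248 TPM. Between Gpr124-/- and WT, 9 members were called higher (Sema3f, Sema4b, Sema6b, Plxna4, Plxnd1, Ephb1, Robo1, Robo3 and Unc5a), where 5.67% of all tested genes were, and 5 were called lower (Sema3e, Sema5a, Epha3, Epha7 and Slit2), where 4.21% were. Between Gpr124ΔC/ΔC and WT, 2 members were called higher (Robo1 and Efna5), against 0.890% of all tested genes, and 2 lower (Epha7 and Efnb3), against 1.03%. Between Gpr124-/- and Gpr124ΔC/ΔC, 7 were called higher (Sema3f, Sema6b, Plxna4, Plxnd1, Efnb3, Robo3 and Unc5a), against 2.67%, and 2 lower (Epha3 and Epha7), against 1.94%. The number called higher between the mutants ran from 1 to 8 when 1 library was left out. The comparisons share samples, so their counts are not independent. By the adjusted p alone, 14 members were higher and 7 lower in Gpr124-/- than in WT (10.5% and 9.32% of all tested genes), 3 higher and 2 lower in Gpr124ΔC/ΔC than in WT (1.85% and 2.24%), and 12 higher and 3 lower in Gpr124-/- than in Gpr124ΔC/ΔC (4.93% and 3.89%). The median log2 fold change of the 59 members was 0.41 for Gpr124-/- minus WT, 0.10 for Gpr124ΔC/ΔC minus WT and 0.18 for Gpr124-/- minus Gpr124ΔC/ΔC, beside -0.01, 0.006 and -0.018 over all tested genes.

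**Figure D2:**
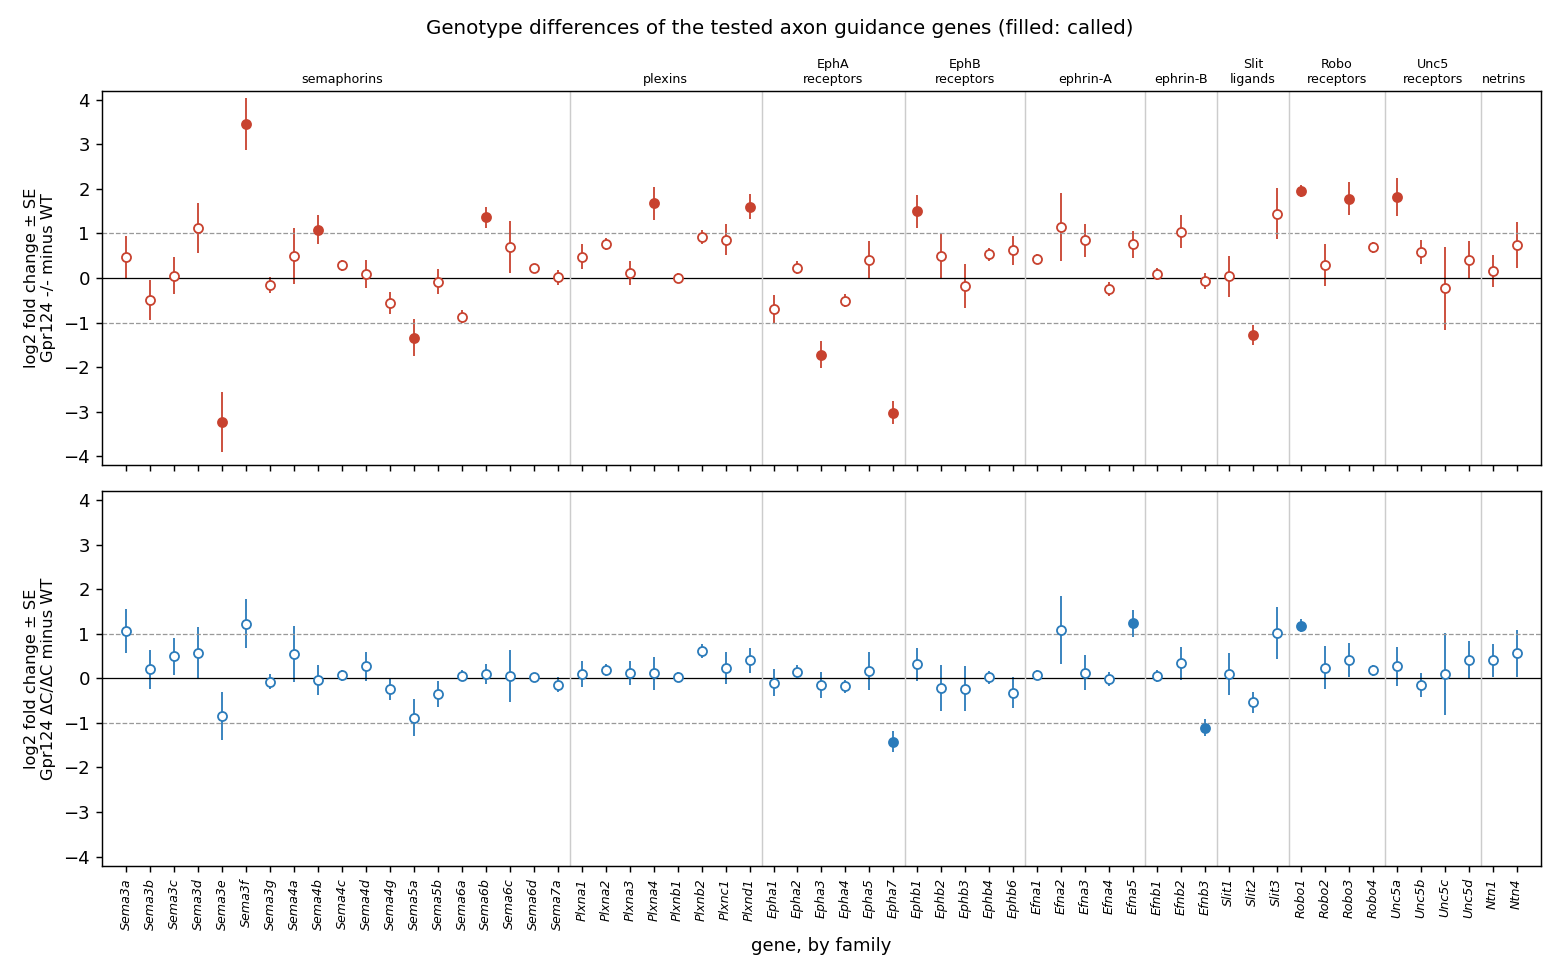
Log2 fold change ± SE of the 59 tested members against WT, by family, for Gpr124-/- (upper panel) and Gpr124ΔC/ΔC (lower panel); filled points are called and dashed lines mark a log2 fold change of 1 in either direction. Called Gpr124-/- members lie in both directions, 9 above and 5 below, while Gpr124ΔC/ΔC has 2 of each.

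Between Gpr124-/- and WT, 3 of the 19 tested semaphorins rose and 2 fell. In the Gpr124ΔC/ΔC comparison with WT, 0 were called by edgeR or by DESeq2, with an unadjusted p under 0.05 by edgeR in 2 of 19. The share of all tested genes with such a p is not given here or below, so these counts have no background. With the label letter as a term, Sema3a, Sema3d and Sema3f were called higher in that comparison. Sema3f, a secreted semaphorin that signals through neuropilin-2 and A-type plexins, had the largest log2 fold change of all members. Its TPM was 5.66, 5, 1.22 and 2.46 in the WT embryos JE1, JE6, KE8 and LE6, 12.9, 11.6, 5.25 and 5.11 in the Gpr124ΔC/ΔC embryos JE3, JE4, LE2 and LE5, and 15.4, 38.5, 44.1 and 64.4 in the Gpr124-/- embryos KE4, ME1, ME4 and ME5. The Gpr124-/- values lay above all others, and within WT and Gpr124ΔC/ΔC the J embryos were above the K and L embryos. The log2 fold change of Sema3f was 3.45 (SE 0.58, adjusted p = 0.000975) for Gpr124-/- minus WT, 1.22 (SE 0.55, adjusted p = 0.329) for Gpr124ΔC/ΔC minus WT and 2.22 (SE 0.55, adjusted p = 0.0241) between the 2 mutants. The last call was lost without any 1 of JE4, LE2, LE5, ME1, ME4 and ME5 (adjusted p up to 0.0831). Within letter K, the log2 ratio of KE4 to KE8 was 3.56, and the ratio of Gpr124ΔC/ΔC to WT was 1.19 within J and 1.05 within L.

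Sema6b, a transmembrane semaphorin and ligand of plexin-A4, was at 15, 11.4, 9.43 and 10.4 TPM in WT, 14.9, 16.5, 9.66 and 10.9 in Gpr124ΔC/ΔC and 24.6, 30.5, 30.6 and 36.9 in Gpr124-/- embryos, in the same embryo order as for Sema3f and throughout. All 4 Gpr124-/- embryos were above the other 8, with a log2 fold change of 1.36 (SE 0.23, adjusted p = 0.00109) against WT and 1.26 (SE 0.23, adjusted p = 0.00533) against Gpr124ΔC/ΔC. Sema4b, a transmembrane class 4 semaphorin, was low, at 1.61, 0.947, 0.961 and 1.64 TPM in WT, 1.41, 1.66, 1.19 and 0.981 in Gpr124ΔC/ΔC and 1.44, 4.02, 2.45 and 3.25 in Gpr124-/- embryos. Here KE4 fell within the WT range and the 3 M embryos lay above it. Its log2 fold change against WT was 1.08 (SE 0.33, adjusted p = 0.0362), a call that was lost without any 1 of JE6, KE8, LE6, ME1, ME4 and ME5 (adjusted p up to 0.123).

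Sema3e, the ligand of plexin-D1, was near the lower end of what was tested, with 15 to 26 reads in WT, 5 to 18 in Gpr124ΔC/ΔC and 0 to 5 in Gpr124-/- libraries. Its TPM was 0.207, 0.362, 0.422 and 0.328 in WT, 0.315, 0.115, 0.144 and 0.165 in Gpr124ΔC/ΔC and 0.0559, 0, 0.0744 and 0 in Gpr124-/- embryos. The Gpr124-/- values lay below all others, with a fitted log2 fold change against WT of -3.23 (SE 0.67, adjusted p = 0.00401). This fold change rests on few reads, as 2 Gpr124-/- libraries held none, and was -0.36 under limma on log2(TPM + 1) with no filter. Sema5a, a transmembrane semaphorin with thrombospondin repeats, was at 1.14, 1.36, 1.18 and 1.20 TPM in WT, 0.797, 0.711, 0.951 and 0.336 in Gpr124ΔC/ΔC and 0.480, 0.191, 0.984 and 0.333 in Gpr124-/- embryos. Every mutant value lay below the lowest WT value, while the mutants overlapped each other. The log2 fold change of Sema5a was -1.34 (SE 0.41, adjusted p = 0.0367) in Gpr124-/- and -0.88 (SE 0.41, adjusted p = 0.350) in Gpr124ΔC/ΔC embryos against WT, and the former call was lost without any 1 of 8 libraries, all but LE2, LE5, JE3 and ME4 (adjusted p up to 0.102).

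Sema6a, a ligand of plexin-A2 and plexin-A4 and the most abundant semaphorin in WT, was at 161, 160, 175 and 182 TPM in WT, 146, 165, 223 and 221 in Gpr124ΔC/ΔC and 127, 77.5, 101 and 79.3 in Gpr124-/- embryos. All Gpr124-/- embryos were below all others, with a log2 fold change of -0.87 (SE 0.14, adjusted p = 0.000553) against WT and -0.93 (SE 0.14, adjusted p = 0.00136) against Gpr124ΔC/ΔC, inside the fold threshold. Without KE4 it passed the threshold against both (-1.01 and -1.07). Sema6a made up 38.3% to 41.3% of semaphorin RNA in WT and 16.3% to 30.6% in Gpr124-/- embryos, while the sum over the 20 genes was 427 TPM ± 37.1 in WT, 463 ± 69.2 in Gpr124ΔC/ΔC and 440 ± 35.5 in Gpr124-/- embryos. Apart from Sema6b and Sema3f, described above, the other semaphorins above 10 TPM had no adjusted p under 0.05 in any comparison. In WT, Gpr124ΔC/ΔC and Gpr124-/- embryos their means were 82.1, 88.9 and 98.4 TPM for the transmembrane Sema6d, 63.2, 60.7 and 65.0 for the GPI-anchored Sema7a, 43.4, 48.2 and 54.4 for Sema4c, a ligand of plexin-B2, and 39.8, 40 and 36.4 for Sema3g. Of the exons of Sema4c, 7.27% overlap a gene on the opposite strand, and whether counting used strand is not given in the sources used here.

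The plexins, the receptors of the semaphorins, had 2 of 8 tested members higher in Gpr124-/- than in WT and none lower; their summed level was 189 TPM ± 32.9 in WT, 256 ± 30.1 in Gpr124ΔC/ΔC and 492 ± 121 in Gpr124-/- embryos. Against WT, 0 plexins were called in Gpr124ΔC/ΔC, with an unadjusted p under 0.05 in 1 of 8 and 0 called by DESeq2. Plxnd1, the receptor of Sema3E, was at 148, 152, 109 and 81.2 TPM in WT, 208, 196, 156 and 119 in Gpr124ΔC/ΔC and 280, 327, 416 and 514 in Gpr124-/- embryos. The Gpr124-/- embryos were above all others, and Gpr124ΔC/ΔC and WT overlapped. Within WT and within Gpr124ΔC/ΔC, the J embryos of Plxnd1 were above the K and L embryos. As a log2 ratio of means, Gpr124ΔC/ΔC to WT was 0.43 within J and 0.76 within L. The log2 fold change of Plxnd1 was 1.60 (SE 0.28, adjusted p = 0.00142) for Gpr124-/- minus WT, 0.40 (SE 0.28, adjusted p = 0.624) for Gpr124ΔC/ΔC minus WT and 1.20 (SE 0.28, adjusted p = 0.0191) between the mutants, and 1.37 as the log2 ratio of KE4 to KE8. The call between the mutants was lost without LE2, LE5 or ME5 (adjusted p up to 0.0699). Its ligand gene Sema3e fell in the comparison of Gpr124-/- with WT in which Plxnd1 rose.

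Plxna4, a receptor of class 6 semaphorins, was at 3.51, 1.95, 1.62 and 2.27 TPM in WT, 3.47, 2.30, 2.69 and 2.03 in Gpr124ΔC/ΔC and 3.14, 8.49, 7.49 and 11.3 in Gpr124-/- embryos. The 3 M embryos lay above all others and KE4 lay within the WT range. Its log2 fold change was 1.67 (SE 0.37, adjusted p = 0.00643) against WT and 1.56 (SE 0.37, adjusted p = 0.0210) against Gpr124ΔC/ΔC, and with the label letter in the fit it was 0.91 (adjusted p = 0.326) against WT. The call between the mutants was lost without any 1 of JE4, LE2, LE5, ME1 and ME5 (adjusted p up to 0.0717). Plxna2, another class 6 receptor, had means of 15.4, 18.7 and 26.7 TPM in WT, Gpr124ΔC/ΔC and Gpr124-/- embryos, with a log2 fold change of 0.76 (adjusted p = 0.00094) in Gpr124-/- against WT. Plxnb2, a receptor of class 4 semaphorins, had means of 19.4, 31.9 and 37.7 TPM, and both mutants differed from WT by an adjusted p under 0.05 and under the fold threshold. The log2 fold change was 0.92 (adjusted p = 0.00109) in Gpr124-/- and 0.62 (adjusted p = 0.0441) in Gpr124ΔC/ΔC. Without ME1 the former was 1.03 and called. Plxnb1, the receptor of Sema4D, had means of 17.3, 18.7 and 17.6 TPM with a log2 fold change of -0.01 (SE 0.11, adjusted p = 0.968) in Gpr124-/- against WT, and Plxna1 means of 8.64, 9.57 and 12.5 TPM (adjusted p = 0.298).

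Of the 6 tested EphA receptors, 2 fell in Gpr124-/- against WT and none rose, with Epha4 lower by the adjusted p alone. Epha7, a receptor of ephrin-As, was at 4.61, 3.94, 5.15 and 7.12 TPM in WT, 1.17, 1.68, 2.74 and 2.76 in Gpr124ΔC/ΔC and 0.840, 0.569, 0.741 and 0.481 in Gpr124-/- embryos. The 3 genotypes did not overlap, with WT highest and Gpr124-/- lowest. Its log2 fold change was -3.02 (SE 0.26, adjusted p = 4.15e-06) for Gpr124-/- minus WT, -1.42 (SE 0.24, adjusted p = 0.0042) for Gpr124ΔC/ΔC minus WT and -1.60 (SE 0.26, adjusted p = 0.00229) between the mutants. Within letters the log2 ratio to WT was -2.48 within K, -1.52 within J and -1.34 within L. Between the mutants, the Epha7 call was lost with the letter as a term (-1.08, adjusted p = 0.215) and under limma on log2(TPM + 1) (-0.86, inside the fold threshold), and that of Gpr124ΔC/ΔC against WT in 2 limma fits (adjusted p = 0.0578 and 0.0674).

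Epha3, also a receptor of ephrin-As, was at 7.03, 5.83, 5.91 and 10.8 TPM in WT, 3.79, 5.43, 11.4 and 8.17 in Gpr124ΔC/ΔC and 2.69, 2.92, 1.85 and 1.74 in Gpr124-/- embryos. All 4 Gpr124-/- embryos lay below the other 8, with a log2 fold change of -1.72 (SE 0.30, adjusted p = 0.00124) against WT and -1.58 (SE 0.30, adjusted p = 0.00637) against Gpr124ΔC/ΔC. Unlike Epha7, Epha3 was not called between Gpr124ΔC/ΔC and WT, at -0.15 (SE 0.29, adjusted p = 0.927). Epha2, the most abundant EphA, was at 34.7, 31.3, 30.3 and 39.2 TPM in WT, 28.0, 40.3, 48.7 and 44.1 in Gpr124ΔC/ΔC and 33.1, 39.9, 38.8 and 51.0 in Gpr124-/- embryos. The 3 genotypes overlapped, and its log2 fold change in Gpr124-/- against WT was 0.23 (SE 0.15, adjusted p = 0.350). Epha4, which binds both ephrin classes, had means of 13.5, 12.7 and 9.71 TPM in WT, Gpr124ΔC/ΔC and Gpr124-/- embryos (log2 fold change -0.51, adjusted p = 0.0314, for Gpr124-/- minus WT).

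Among the 5 EphB receptors, Ephb1 alone was called, in Gpr124-/- against WT. It was at 1.28, 1.57, 0.559 and 0.651 TPM in WT, 1.53, 1.77, 0.766 and 1.25 in Gpr124ΔC/ΔC and 2.74, 3.88, 3.06 and 2.32 in Gpr124-/- embryos. These last lay above all others, with a log2 fold change of 1.49 (SE 0.37, adjusted p = 0.0128) against WT and 1.19 (SE 0.37, adjusted p = 0.0702) against Gpr124ΔC/ΔC. Ephb4, the venous receptor of ephrin-B2, made up at least 96.1% of the family's RNA in every library and was at 153, 137, 113 and 130 TPM in WT, 131, 168, 126 and 144 in Gpr124ΔC/ΔC and 177, 165, 234 and 221 in Gpr124-/- embryos. Each Gpr124-/- value was above the highest WT value, and the log2 fold change was 0.53 (SE 0.15, adjusted p = 0.0209) against WT, 0.02 (SE 0.15, adjusted p = 0.989) for Gpr124ΔC/ΔC minus WT and 0.52 (SE 0.15, adjusted p = 0.0450) between the mutants. The summed level of 6 venous markers, of which Ephb4 is one, was 3220 to 4650 TPM in WT, 932 to 1750 in Gpr124ΔC/ΔC and 527 to 732 in Gpr124-/- embryos, and most of it in WT was Slc38a5, at a mean of 3660 TPM against 106 in Gpr124-/- embryos.

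Of the ephrins, Efnb3, a transmembrane ephrin-B, was called in Gpr124ΔC/ΔC against WT and between the mutants. It was at 12.1, 12.6, 12.9 and 12.5 TPM in WT, 6.28, 5.97, 6.04 and 6.12 in Gpr124ΔC/ΔC and 9.51, 13.5, 10.2 and 15.7 in Gpr124-/- embryos. The 4 Gpr124ΔC/ΔC embryos were below all 8 others and within 0.31 TPM of each other, and WT and Gpr124-/- overlapped. The log2 fold change of Efnb3 was -1.11 (SE 0.19, adjusted p = 0.00397) for Gpr124ΔC/ΔC minus WT, -0.06 (SE 0.18, adjusted p = 0.855) for Gpr124-/- minus WT and 1.04 (SE 0.19, adjusted p = 0.00436) between the mutants. The Gpr124ΔC/ΔC to WT difference was -1 within letter J and -1.03 within letter L as a log2 ratio of means. Between the mutants, the fold change fell inside the threshold without ME1 (0.97) or ME5 (0.89), under limma (0.87 to 0.96), and with the letter as a term (0.61, adjusted p = 0.759), and that of Gpr124ΔC/ΔC against WT under limma on log2(TPM + 1) (-0.93).

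Efna5, a GPI-anchored ligand of EphA receptors, was the other ephrin called, at 1.56, 1.97, 1.57 and 1.28 TPM in WT, 5.89, 3.65, 2.44 and 3.41 in Gpr124ΔC/ΔC and 3.30, 2.28, 3.25 and 2.32 in Gpr124-/- embryos. All mutant embryos were above all WT embryos. The log2 fold change was 1.23 (SE 0.31, adjusted p = 0.0439) in Gpr124ΔC/ΔC and 0.75 (SE 0.31, adjusted p = 0.118) in Gpr124-/- embryos against WT, and the former call was lost without any 1 of 10 libraries, all but JE6 and LE2 (adjusted p up to 0.131). Efna1 was at 708, 571, 687 and 784 TPM in WT, 630, 767, 844 and 834 in Gpr124ΔC/ΔC and 823, 950, 954 and 1070 in Gpr124-/- embryos. Each Gpr124-/- embryo was above the highest WT embryo, with a log2 fold change of 0.43 (SE 0.10, adjusted p = 0.00831), and 0.08 (SE 0.10, adjusted p = 0.862) in Gpr124ΔC/ΔC.

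Efnb2, the arterial partner of EphB4, was at 35.0, 35.3, 16.6 and 17.7 TPM in WT, 55.2, 31.6, 23.7 and 26.3 in Gpr124ΔC/ΔC and 35.0, 57.8, 69.6 and 61.1 in Gpr124-/- embryos. Here the spread within a genotype followed the letter, with J above K and L. The log2 fold change for Gpr124-/- minus WT was 1.04 (SE 0.38) and did not pass the test (adjusted p = 0.0735), whereas it passed under DESeq2, under limma on log2(TPM + 1) and log2(TPM + 0.1) with a filter on TPM, and without JE3 (adjusted p = 0.0289) or KE4 (adjusted p = 0.0418); over all alternatives the adjusted p was 0.0273 to 0.187. The summed level of 10 arterial markers, which include Efnb2 and Unc5b, was 1730 to 2160 TPM in WT, 1340 to 1600 in Gpr124ΔC/ΔC and 1310 to 2100 in Gpr124-/- embryos. Efna4 had means of 15.6, 16.5 and 13.6 TPM and Efnb1 of 13.0, 14.1 and 14.2 in the 3 genotypes (adjusted p = 0.355 and 0.732 for Gpr124-/- minus WT), and 10.5% of the Efna4 exons overlap a gene on the opposite strand.

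In the Slit and Robo system, 1 of 3 ligands fell and 2 of 4 receptors rose in Gpr124-/- against WT. Robo1, a Slit receptor expressed in endothelium as well as neurons, was at 7.26, 8.14, 9.14 and 9.69 TPM in WT, 14.0, 20.5, 26.7 and 21.6 in Gpr124ΔC/ΔC and 30.9, 31.4, 39.9 and 33.5 in Gpr124-/- embryos. The 3 genotypes did not overlap, in the order WT, Gpr124ΔC/ΔC, Gpr124-/-. Its log2 fold change was 1.95 (SE 0.14, adjusted p = 1.26e-06) for Gpr124-/- minus WT, 1.18 (SE 0.14, adjusted p = 0.00039) for Gpr124ΔC/ΔC minus WT and 0.77 (SE 0.14, adjusted p = 0.00413) between the mutants. Within letters its log2 ratio was 1.75 within K, 1.15 within J and 1.31 within L. Robo1 and Epha7 were the members called against WT in both mutants, Robo1 upward and Epha7 downward. Of the 17 tested neuron markers, 2 were also called in Gpr124-/- against WT, both higher, and the rest were not called. Gap43 was at 7.16 to 11.2 TPM in WT, 8.01 to 13.7 in Gpr124ΔC/ΔC and 33.4 to 70.1 in Gpr124-/- embryos and Stmn2 at 9.87 to 19.6, 17.6 to 25.7 and 26.0 to 40.1. Their part in Robo1 was not tested.

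Slit2, the most abundant Slit and a ligand of Robo1, was at 2.43, 2.74, 1.43 and 3.04 TPM in WT, 1.60, 1.48, 1.55 and 2.44 in Gpr124ΔC/ΔC and 1.08, 0.892, 1.13 and 0.992 in Gpr124-/- embryos. The Gpr124-/- embryos lay below all others, with a log2 fold change against WT of -1.28 (SE 0.23, adjusted p = 0.00155) and, with the label letter in the fit, of -0.45 (adjusted p = 0.600). Robo3, a Robo that in mammals binds Slits weakly, was at 0.319, 0.603, 0.396 and 0.977 TPM in WT, 0.926, 0.748, 0.587 and 0.892 in Gpr124ΔC/ΔC and 1.16, 2.63, 2.10 and 2.18 in Gpr124-/- embryos. All Gpr124-/- embryos were above all others, with a log2 fold change of 1.78 (SE 0.37, adjusted p = 0.00392) against WT and 1.37 (SE 0.36, adjusted p = 0.0339) against Gpr124ΔC/ΔC. Robo3 ends 553 bases from the end of Robo4 on the opposite strand, and had 17 to 104 reads per library against 6235 to 14163 for Robo4; whether reads from Robo4 add to it was not tested. The Robo3 call between the mutants was lost without any 1 of JE4, LE2, LE5, ME1, ME4 and ME5 (adjusted p up to 0.104).

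Robo4 was at 213, 196, 213 and 246 TPM in WT, 195, 251, 305 and 294 in Gpr124ΔC/ΔC and 324, 309, 366 and 438 in Gpr124-/- embryos. The Gpr124-/- embryos were above all others, with log2 fold changes under the threshold of 0.69 (SE 0.12, adjusted p = 0.00135) against WT and 0.51 (SE 0.12, adjusted p = 0.0202) against Gpr124ΔC/ΔC. Robo2, Slit1 and Slit3, at means of 0.352 to 1.33 TPM in all genotypes, had adjusted p of 0.103 or more in each comparison. The log2 fold change for Gpr124-/- minus WT was 1.44 (SE 0.57, adjusted p = 0.103) for Slit3, opposite in sign to Slit2, with overlapping ranges. It was 0.04 (SE 0.46) for Slit1 and 0.29 (SE 0.48) for Robo2.

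Among the Unc5 receptors, which bind netrins, Unc5a was called. It was at 2.12, 3.30, 1.48 and 0.948 TPM in WT, 2.34, 3.69, 2.95 and 1.24 in Gpr124ΔC/ΔC and 3.98, 7.02, 7.72 and 10.2 in Gpr124-/- embryos. Every Gpr124-/- embryo was above all others, KE4 by the least, with a log2 fold change of 1.82 (SE 0.43, adjusted p = 0.00924) against WT and 1.55 (SE 0.43, adjusted p = 0.0420) against Gpr124ΔC/ΔC. The latter call was lost without any 1 of 8 libraries, all but JE6, KE8, LE6 and KE4 (adjusted p up to 0.131). Unc5b, the endothelial Unc5, was at 99.1, 96.3, 58.7 and 80.4 TPM in WT, 98.4, 84.4, 60.9 and 71.3 in Gpr124ΔC/ΔC and 88.7, 147, 114 and 164 in Gpr124-/- embryos. The genotypes overlapped, and its log2 fold change was 0.58 (SE 0.26, adjusted p = 0.153) in Gpr124-/- against WT. The netrins were low: Ntn4, a laminin-related netrin of basement membranes, was at 1.37, 0.490, 0.765 and 0.772 TPM in WT, 2.35, 1.03, 0.717 and 0.970 in Gpr124ΔC/ΔC and 0.601, 1.15, 1.44 and 2.63 in Gpr124-/- embryos, with overlap of all genotypes. The lowest adjusted p of the tested netrins in any comparison was 0.375.

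**Figure D3:**
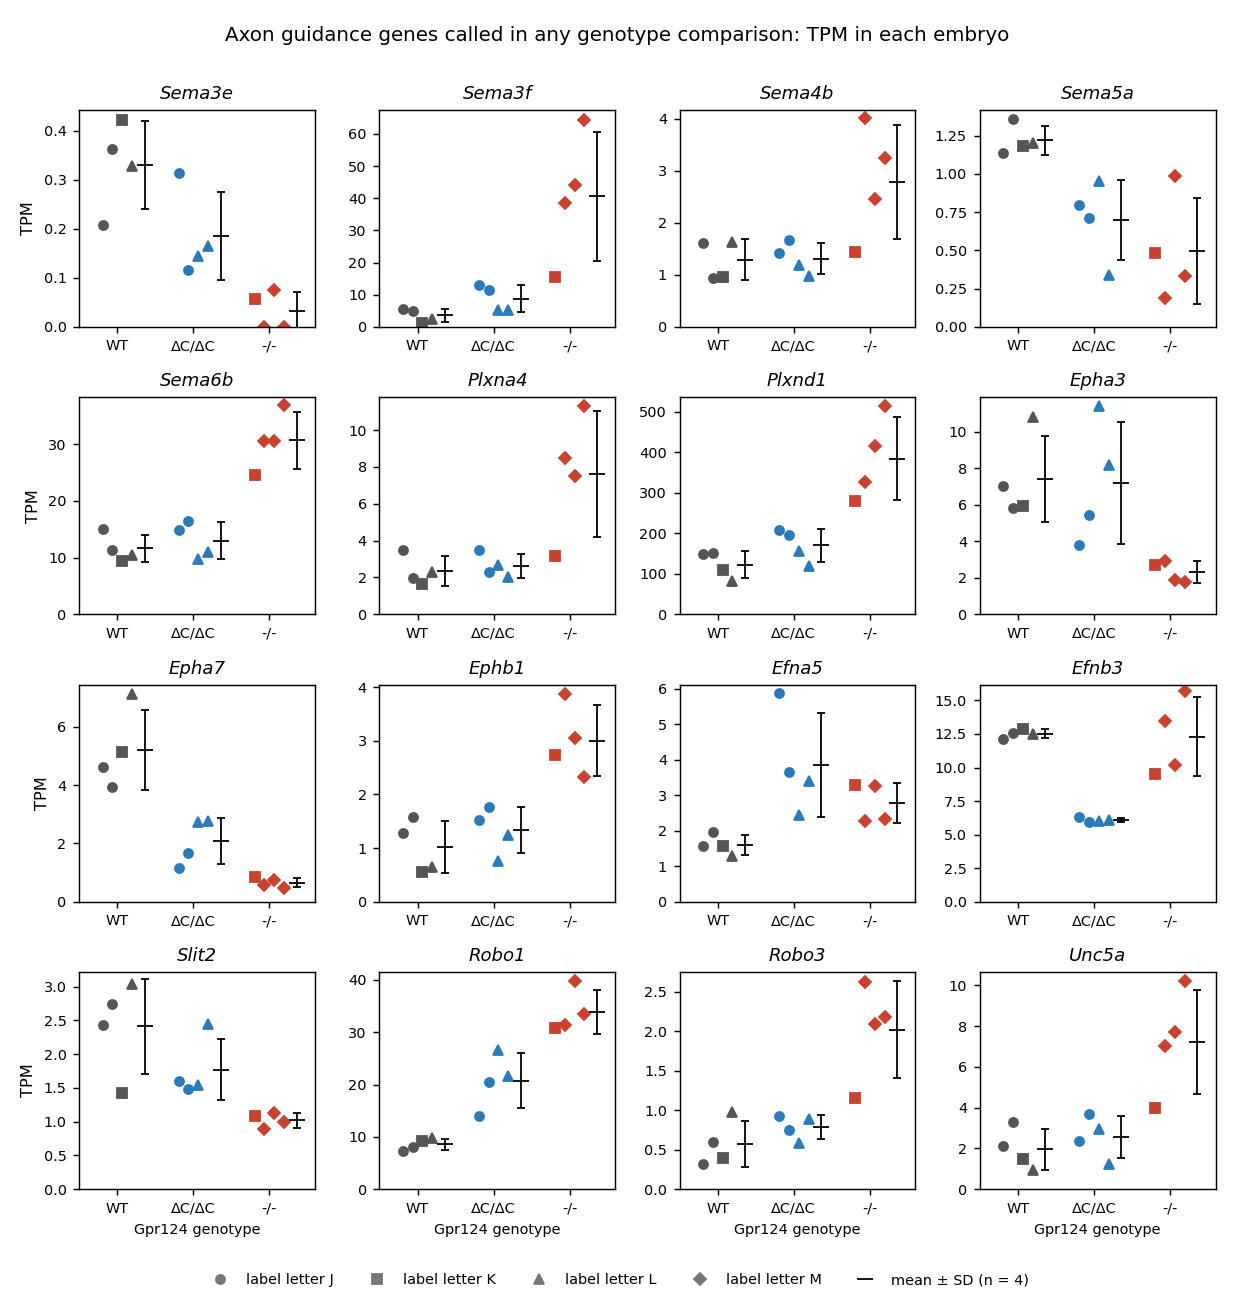
TPM of the 16 members called in any comparison, by genotype; each symbol is an embryo, its shape gives the label letter, and the dash with bars is the mean ± SD of 4 embryos. Robo1 and Epha7 are ordered by genotype without overlap, Efnb3 is low in Gpr124ΔC/ΔC alone, and in Plxna4 and Sema4b the K embryo of Gpr124-/- lies with WT.

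The label letter bears on several of these levels. With the letter as a term, which leaves the Gpr124-/- difference to rest on KE4 against KE8, 6 members were called higher and 1 lower against WT: Sema3f, Sema6b, Plxnd1, Ephb1, Robo1 and Epha7 were called in both fits, Sema6c was added, and 8 were lost. Of the lost calls, Sema3e (-2.91), Sema5a (-1.34), Epha3 (-1.18), Robo3 (1.5) and Unc5a (1.38) kept a log2 fold change beyond 1 and missed the adjusted p, while Sema4b (0.54), Plxna4 (0.91) and Slit2 (-0.45) were inside the fold threshold as well. Between the mutants, which share no letter, Sema3f was the only one of the 9 calls that was made with the letter as a term. There the log2 fold change was 1.26 for Sema6b (adjusted p = 0.0597), 1.24 for Robo3 and -1.08 for Epha7, beyond 1 in size without passing the adjusted p, and was inside the fold threshold for Unc5a (0.99), Plxna4 (0.88), Plxnd1 (0.83), Efnb3 (0.61) and Epha3 (-0.76). The members that passed by the adjusted p alone did not pass it with the letter as a term. They were 7 in Gpr124-/- against WT (adjusted p = 0.0899 to 0.641, the highest that of Efna1 at a log2 fold change of 0.22), Plxnb2 in Gpr124ΔC/ΔC against WT (adjusted p = 0.0635) and 6 between the mutants (adjusted p = 0.318 to 0.946). In the Gpr124ΔC/ΔC comparison with WT, all 4 called members stayed called, and Sema3a, Sema3d and Sema3f were added. Over the 8 WT and Gpr124ΔC/ΔC embryos, the J embryos were above all K and L embryos for 8 of the 59 tested members, against 7.92% of all tested genes, and below them for 5, against 10.8%. Sema6c, named here after its values were seen, was at 9.15 and 7.13 TPM in the J and 1.62 and 2.46 in the other WT embryos, and 8.35 and 8.59 in the J and 2.26 and 2.67 in the L embryos of Gpr124ΔC/ΔC. The pooled log2 fold change of Sema6c for Gpr124-/- minus WT was 0.70 (SE 0.58, adjusted p = 0.469), whereas KE4 was at 5.51 TPM against 1.62 in KE8.

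**Figure D4:**
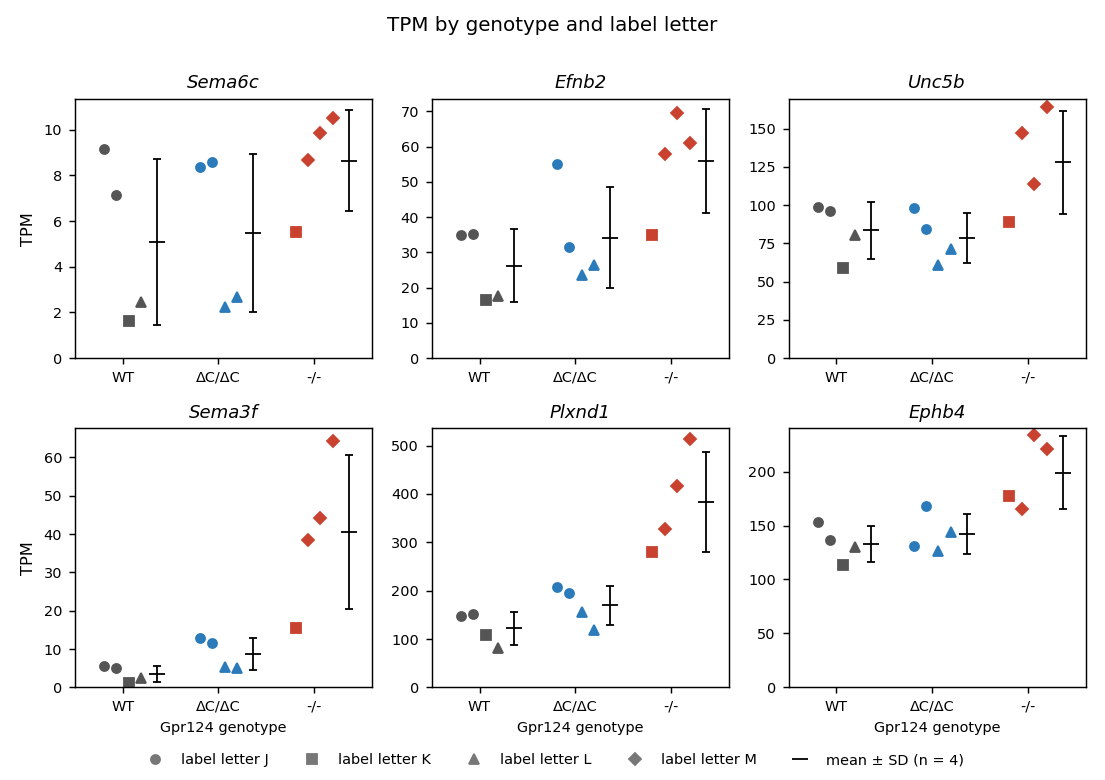
TPM of 6 members by genotype, with the label letter as the symbol and the mean ± SD of 4 embryos beside them. Within WT and within Gpr124ΔC/ΔC, Sema6c, Efnb2, Unc5b, Sema3f and Plxnd1 are higher in J embryos than in K and L embryos. In Ephb4 the letters overlap within Gpr124ΔC/ΔC.

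A list of 111 partner genes (co-receptors, other ligands and receptors, and intracellular effectors of the same systems) was looked at beside the members; 107 were tested. Against WT, 7 (6.54%) rose and 3 (2.80%) fell in Gpr124-/- embryos, near the 5.67% and 4.21% of all tested genes. Those that rose include Met, the HGF receptor and a partner of plexin-Bs, at a log2 fold change of 1.74, Mical2, a monooxygenase of the plexin effector family (1.41), Vav3 (1.40) and Chn1 (1.30), which act downstream of Eph receptors, Draxin, a netrin-binding ligand (1.28), and Dpysl3 (1.18) and Crmp1 (1.08), of the collapsin response mediator proteins. Those that fell were the chemokine Cxcl12 (-1.77), the Rac activator Tiam1 (-1.60) and the kinase Src (-1.44). With the letter as a term, Crmp1, Cxcl12, Dpysl3 and Vav3 stayed called, and the calls of Chn1, Draxin, Met, Mical2, Src and Tiam1 were lost. That fit added calls of Cntn2, Fyn, Nck2, Rnd2 and Samd5. Between Gpr124-/- and Gpr124ΔC/ΔC, Mical2 (2.37), Met (1.15) and the pseudokinase receptor Ptk7 (1.07) rose and Tiam1 (-1.36) and Samd5 (-1.05) fell, or 2.80% and 1.87% of the list against 2.67% and 1.94% of all tested genes. Of these 5, Samd5 alone was called with the letter as a term, and Tiam1 alone under limma on log2(TPM + 1). The fit with the letter added calls of Cntn2, Cxcl12 and Fyn between the mutants. Against WT, 0 partner genes were called in Gpr124ΔC/ΔC by edgeR without the letter, DESeq2 or limma. In that comparison the unadjusted p of edgeR was under 0.05 in 21 of 107, with no share over all tested genes given here. With the letter as a term, Gpc1 and Mical2 were called lower there. By the adjusted p alone, Dpysl3 was higher (0.87, adjusted p = 0.00423) and Cxcl12 (-0.91, adjusted p = 0.00256) and Dapk1 (-0.60, adjusted p = 0.0222) lower there. The neuropilins, co-receptors of class 3 semaphorins, had means of 162, 226 and 273 TPM for Nrp1 and 35.1, 48.9 and 39.3 TPM for Nrp2 in WT, Gpr124ΔC/ΔC and Gpr124-/- embryos. For Nrp1 the log2 fold change was 0.72 (adjusted p = 0.00131) in Gpr124-/- and 0.39 (adjusted p = 0.133) in Gpr124ΔC/ΔC against WT, and Nrp2 did not pass the test in any comparison. Of the other netrin receptors, Neo1 was at 16.4, 9.87 and 10 TPM (adjusted p = 0.104 for Gpr124-/- minus WT) and Dcc at 1.24 to 1.33 TPM.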

How the data were processed

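RNA of sorted CD31+ cells from 1 forebrain per library was extracted with PicoPure, amplified with SMART-Seq V4, and sequenced paired-end on an Illumina HiSeq; bcl2fastq 2.17 and mm10 are named in the submitters' processing notes. The aligner, the counter and the use of strand are not given in the sources used here. The authors deposited raw read counts per gene and TPM, which they computed from the counts and exon lengths: recomputed TPM differed by at most 0.0495% for values of at least 0.1. Gene coordinates came from the count files (GRCm38), and gene types from GENCODE vM21, in which 49056 of 49315 identifiers were found.

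Counts were fitted with edgeR 4.0.16 (R 4.3.3; quasi-likelihood test, TMM, filterByExpr with a minimum count of 10) in a single model of the 12 libraries with genotype as the only term, after the script was tested on simulated data. Standard errors are the log2 fold change divided by the square root of F. Depth was 13877572 to 22551163 reads on genes (median 16984382). DESeq2 1.42.0, limma 3.58.1 on log2(TPM + 1) and log2(TPM + 0.1), other filters, the label letter as a term, the 2 compared genotypes alone and leaving out each library were the alternatives. Members called in any comparison and the highest member of each family are given for every library; members with an adjusted p under 0.05 or a group mean of at least 10 TPM are given as means, and partner genes when called. Members and lists were chosen with earlier results of these data known.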

Additional observations from a re-analysis of the deposited data

Results flagged for a closer look

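Over 72 groups of 4 embryos (24 members by 3 genotypes), 1 library stood apart by Dixon's test, which flags about 1 in 20 groups by chance. In Gpr124ΔC/ΔC embryos, Slit2 was at 2.44 TPM in LE5 against 1.48 to 1.60 TPM in the other 3 embryos. The WT range of Slit2 was 1.43 to 3.04 TPM, which holds all 4 values.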

How the results depend on the processing

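Of the 27 called log2 fold changes of members, 7 were called under every alternative, and over 560 values 460 kept their call, 100 lost it and 0 reversed; the cause was not tested. With the label letter as a term, Gpr124-/- against WT gave 1 member lower, Gpr124ΔC/ΔC against WT 5 higher and 2 partner genes, and Gpr124-/- against Gpr124ΔC/ΔC 2 higher and 0 lower. With limma on log2(TPM + 1), the counts were 2 lower in Gpr124-/- and 1 higher and 1 lower in Gpr124ΔC/ΔC against WT, and 1 lower and 1 partner gene between the mutants. With log2(TPM + 0.1) they were 3 lower and 1 lower against WT, and 4 higher and 3 partner genes between the mutants. With no filter on TPM they were 2 lower in Gpr124-/-, 1 higher and 0 lower in Gpr124ΔC/ΔC, and 2 higher, 0 lower and 2 partner genes between the mutants. The first pair of limma fits hold fewer members, since they need a mean of at least 1 TPM. With only the 2 compared genotypes, 1 member was higher in Gpr124ΔC/ΔC. With no fold threshold, 14 members were higher and 32 partner genes called in Gpr124-/-, 3 partner genes in Gpr124ΔC/ΔC, and 12 members higher and 15 partner genes between the mutants. Without 1 library, 8 to 11 members were higher and 4 to 5 lower in Gpr124-/- and 1 to 2 higher and 2 lower in Gpr124ΔC/ΔC than in WT, 1 to 8 higher and 2 to 3 lower between the mutants, and partner genes numbered 8 to 14, 0 to 1 and 3 to 8 in the 3 comparisons. The 7 members higher between the mutants fell to 3 without JE4, 2 without LE2, LE5 or ME1, 4 without ME4 and 1 without ME5. The 33 other fold changes gave 15 reversals, all of differences that did not pass the test: with the letter as a term, Slit2 between the mutants (0.31), Ntn4 in Gpr124-/- (-0.39) and between the mutants (-0.96), and Ephb4 in Gpr124ΔC/ΔC (-0.03); and without 1 library, where values ran from -0.06 to 0.18 for Epha2 between the mutants, from -0.07 to 0.09 for Ephb4, from -0.11 to 0.57 for Efnb2, from -0.05 to 0.90 for Ntn4 and from -0.0048 to 0.13 for Sema6a in Gpr124ΔC/ΔC, and from -0.29 to 0.80 for Ntn4 between the mutants. The labels give no replicate numbers shared across genotypes, and the label letter was the only block that could be fitted. Sema3e, with 0 to 26 reads per library, is at the limit of what this depth can show.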

Other observations

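Efnb3, the member lower in Gpr124ΔC/ΔC embryos alone, lies on chromosome 11 at 69554092 to 69560205. A window of 1 Mb on each side, chosen after its values were seen, held 79 other tested genes. Between Gpr124ΔC/ΔC and WT, 1 of them was called, Alox8, at a log2 fold change of 2.05 (edgeR, adjusted p = 0.0462), and 2 (2.53%) had an adjusted p under 0.05, against 4.09% of all tested genes. Between Gpr124-/- and WT, 20 of the 79 (25.3%) had an adjusted p under 0.05, against 19.8% of all tested genes.

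With the letter as a term, Sema3a and Sema3d were called higher in Gpr124ΔC/ΔC than in WT. No Gpr124ΔC/ΔC embryo has letter K, so in that fit the WT embryo KE8 does not enter this comparison. KE8 was at 0.717 TPM for Sema3a, against 0.0551 to 0.362 in JE1, JE6 and LE6 and 0.633 to 0.854 in Gpr124ΔC/ΔC. Sema3a, a secreted semaphorin, had means of 0.346 TPM ± 0.278 in WT, 0.741 ± 0.118 in Gpr124ΔC/ΔC and 0.478 ± 0.137 in Gpr124-/- embryos, and without the letter its log2 fold change in Gpr124ΔC/ΔC was 1.06 (SE 0.49, adjusted p = 0.340). Sema3d had means of 0.285 TPM ± 0.326, 0.449 ± 0.227 and 0.625 ± 0.166. For Sema3d, KE8 was at 0.771 TPM, against 0.0889 to 0.159 in JE1, JE6 and LE6 and 0.265 to 0.78 in Gpr124ΔC/ΔC. Without the letter, the log2 fold change of Sema3d in Gpr124ΔC/ΔC was 0.57 (SE 0.58, adjusted p = 0.799). Efna2 was at 2.90 and 2.30 TPM in the J embryos and 0.105 and 0.269 TPM in the L embryos of Gpr124ΔC/ΔC, with a log2 fold change against WT of 1.08 (SE 0.77, adjusted p = 0.639).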
